A study of Sus scrofa with 8 samples.

Results

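ID proteins are the natural brake on E proteins, and the genes of both families were followed here through pig limb tissue that can or cannot make skeletal muscle. The set holds 7 genes, picked by symbol from the deposited gene table: the inhibitors ID1, ID2, ID3 and ID4, and the E-protein genes TCF3, TCF4 and TCF12. All 7 were found among the 22516 genes of the table, and all 7 had enough counts to be among the 17020 genes tested.

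E proteins are basic helix-loop-helix (bHLH) transcription factors made in nearly every tissue. They pair with tissue-restricted bHLH factors, such as the myogenic factors of muscle, and each pair binds the short DNA motif called the E box. ID proteins keep the helix-loop-helix that makes the pairing but lack the basic region that holds DNA, so an E protein bound to an ID protein cannot act at an E box. Bone morphogenetic protein (BMP) signals raise transcription of ID1, ID2 and ID3 through SMAD proteins in many cell types. In cultured mouse myoblasts ID1 was first described as an inhibitor of MYOD.

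The study compared limb muscle tissue of pig (Sus scrofa) between wild-type embryos and embryos with MYF5, MYOD and MYF6 knocked out, at embryonic day 41 (E41) and at a later stage labelled day 62 (E62). There were 4 groups of 2 libraries each, wild type and knockout at each stage, and no other allele or treatment is given for any group. The sample titles call the 2 libraries of each group biological replicates, and the knockout E62 library names carry what looks like an embryo tag. The alleles, breed, and whether each library is 1 animal or a pool are not stated in the sources used here. The p-values cover only how these libraries vary, which may be technical in part. The growth notes give day 60 for the later stage, and the series title says knockdown where the sample labels say knockout. Each group carries its own number in its library names, and the wild-type E41 libraries carry a different limb code from the other 6, so a litter, a preparation batch or a limb cannot be told apart from the group.

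The targeted genes matched the labels. MYF5 and MYF6 had 0 counts in all 4 knockout libraries, against 2165 and 1202 counts summed over the wild-type E41 libraries and 5326 and 7111 over the wild-type E62 libraries. For MYOD1 the wild-type libraries held 1503 and 2161 counts at E41 and 5715 and 5203 at E62, and the knockout libraries still held 28 and 20, then 77 and 88. Library totals ran from 23402052 to 60539245 counts and were higher in the knockout at each stage. The knockout tissue lacked the transcripts that define muscle: 10 skeletal muscle marker genes summed to 24.6 to 28.4 CPM (counts set on a common library total with edgeR's TMM factors) in the knockout at E41, against 14135 to 15689 in wild type, and to 13.0 to 14.5 against 33994 to 43209 at E62. The 2 knockout libraries of E62 had the lowest correlation of any replicate pair (0.967 against 0.972 to 0.987) and a gap of 41.2 on the second principal component, which holds 19.7% of the variance, against 1.3 to 8.3 in the other groups. Chi-square per degree of freedom, computed on counts without TMM factors, was 70 for the wild-type E62 pair and 65.5 for the knockout E62 pair. This value grows with depth and is weighted to abundant genes, so it does not rank the pairs by distance.

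The 4 ID genes are short and the 3 E-protein genes are mostly long, as RefSeq places them on Sscrofa11.1. ID1 (ENSSSCG00000037016) lies on chromosome 17 from 35316518 to 35317742, ID2 (ENSSSCG00000008645) on chromosome 3 from 127500759 to 127503207, ID3 (ENSSSCG00000039514) on chromosome 6 from 81422541 to 81424169, and ID4 (ENSSSCG00000024312) on chromosome 7 from 15281535 to 15284895. TCF3 (ENSSSCG00000013437) lies on chromosome 2 from 76859079 to 76906275, TCF4 (ENSSSCG00000004535) on chromosome 1 from 104718809 to 105079919, and TCF12 (ENSSSCG00000004600) on chromosome 1 from 114682299 to 115056363. TCF3 shares 3057 bases with the protein-coding gene LOC100524239, and because the strand setting of the counting is not given, reads of the 2 genes in that stretch cannot be told apart. No annotated gene overlaps the other 6, and the nearest neighbour of ID2, LOC106509912, begins 302 bases away.

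ID2, ID3 and ID4, 3 of the 4 ID genes, were higher in tissue without the myogenic factors at each stage, while TCF4 and TCF12 passed the test at neither. In the edgeR quasi-likelihood test, with p-values adjusted by Benjamini-Hochberg over all genes and a threshold of 0.05, 4 of the 7 genes rose at E41 and 0 fell. At that stage 18.5% of all genes tested rose and 20.8% fell. At E62, 3 of the 7 rose and 0 fell, against 21% and 26.2% of all genes. The knockout libraries lay wholly outside the wild-type range for 6 of the 7 genes at E41 and 5 of the 7 at E62, which was so for 73.3% and 77.4% of all genes. With so many genes changed, the counts alone do not set the 7 apart, and the values of each gene follow.

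**Figure D1:**
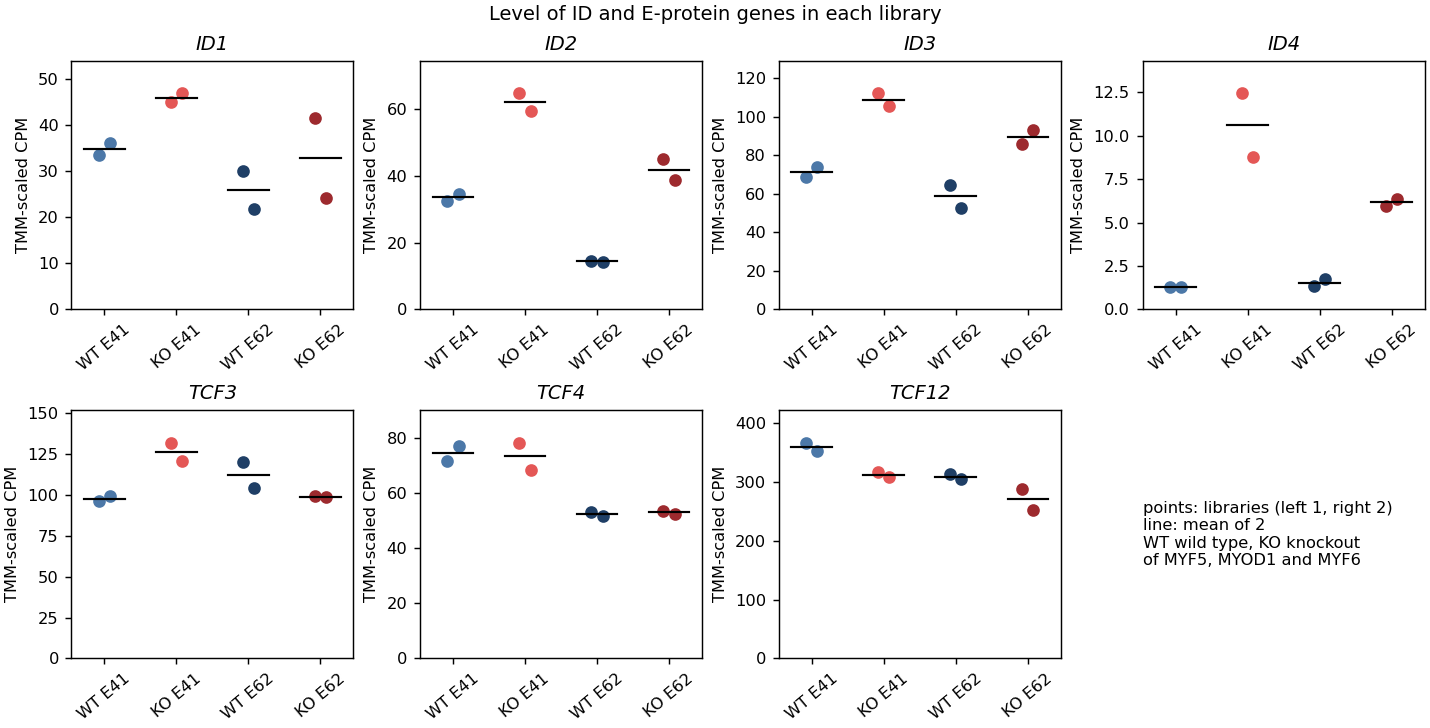
Level of each ID and E-protein gene in each library, in TMM-scaled CPM on a linear axis from 0, with 1 point per library and a line at the mean of the 2 libraries of a group. ID2, ID3 and ID4 sit higher in the knockout (red) than in wild type (blue) at each stage, and TCF4 sits lower at E62 than at E41 in both genotypes.

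ID2, an inhibitor best known in the mouse for its part in lymphocyte and mammary development, had levels of 32.6 and 34.6 CPM in the wild-type E41 libraries and 64.6 and 59.5 CPM in the knockout. At E62 it was at 14.6 and 14.1 CPM in wild type and 45.0 and 38.6 CPM in the knockout. No groups overlapped, and the order of the group means was wild type E62 (14.4 ± 0.340 CPM, SD, n = 2), wild type E41 (33.6 ± 1.47), knockout E62 (41.8 ± 4.51) and knockout E41 (62.05 ± 3.68). The knockout was 1.85-fold higher at E41 (log2 change 0.88 ± 0.11, SE, adjusted p = 0.00062). It was 2.91-fold higher at E62 (log2 change 1.54 ± 0.11, adjusted p = 2.6e-05). Of all genes tested, 17.1% had a larger rise at E41 and 11.5% at E62.

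ID4, a family member studied mostly in the nervous system, had the largest change of the 7 genes and the fewest counts. Its wild-type libraries held 27 and 29 counts at E41 and 45 and 59 at E62, or 1.30 and 1.28 CPM and then 1.35 and 1.74 CPM. The knockout libraries held 578 and 404 counts at E41 (12.4 and 8.77 CPM) and 404 and 381 at E62 (5.96 and 6.36 CPM). All 4 knockout libraries lay above all 4 wild-type libraries. The rise was 8.18-fold at E41 (log2 change 3.03 ± 0.27, adjusted p = 0.00018) and 3.98-fold at E62 (1.99 ± 0.26, adjusted p = 0.00057). At E41 only 1.60% of all genes tested rose more, and at E62 7.67% did.

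ID3, which like ID1 follows BMP signals closely in many cells, had levels of 68.5 and 73.7 CPM in wild type and 112 and 105 CPM in the knockout at E41. At E62 the wild-type libraries were at 64.6 and 52.7 CPM and the knockout libraries at 85.8 and 93.3 CPM. The ranges of the 2 genotypes did not touch at either stage. The log2 change was 0.61 ± 0.12 at E41 (1.53-fold, adjusted p = 0.0047) and 0.61 ± 0.11 at E62 (1.53-fold, adjusted p = 0.0036). A larger rise was found for 25.4% of all genes tested at E41 and 27.9% at E62. Group means ran from 58.7 ± 8.41 CPM in wild type E62 through 71.1 ± 3.68 in wild type E41 and 89.6 ± 5.31 in knockout E62 to 109 ± 4.74 in knockout E41.

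ID1, the founding member of the family, was the ID gene whose difference did not pass the test. Its levels were 33.6 and 36.1 CPM in wild type and 45.0 and 46.8 CPM in the knockout at E41, and 30.0 and 21.7 CPM against 41.5 and 24.2 CPM at E62. The E41 groups did not overlap and the E62 groups did, since knockout library 2 of E62 lay within the wild-type range. The log2 change was 0.40 ± 0.26 at E41 (95% interval −0.22 to 1.02, adjusted p = 0.27) and 0.35 ± 0.26 at E62 (−0.27 to 0.97, adjusted p = 0.30). The E62 value rested on which knockout library was kept: it was −0.10 without library 1 and 0.69 without library 2, where it passed the test (adjusted p = 0.02, in a range of 0.02 to 0.76 over 18 alternatives). At E41 the difference passed when the fit held the 2 E41 groups alone (adjusted p = 0.02, in a range of 0.02 to 0.49).

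**Figure D2:**
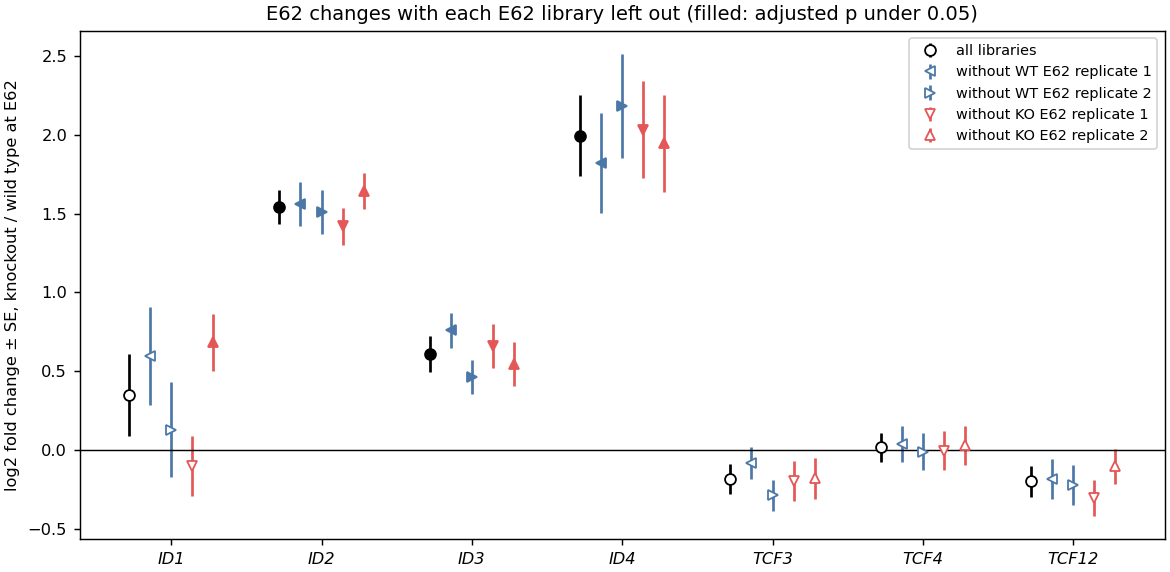
Log2 fold change, knockout over wild type at E62, with its standard error, for all libraries and with each of the 4 E62 libraries left out in turn, with filled symbols where the adjusted p is under 0.05. ID2, ID3 and ID4 stay above 0 and filled in every case, and ID1 runs from −0.10 to 0.69.

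Among the E proteins, TCF3, which encodes E12 and E47 and is known for its part in B-cell development, was the one that passed the test. Its levels at E41 were 96.1 and 99.6 CPM in wild type and 132 and 121 CPM in the knockout. At E62 the order turned, with 120 and 104 CPM in wild type and 99.4 and 98.6 CPM in the knockout. The groups overlapped at neither stage. The log2 change was 0.37 ± 0.10 at E41 (1.29-fold, adjusted p = 0.019) and −0.18 ± 0.10 at E62 (95% interval −0.41 to 0.04, adjusted p = 0.15). A larger rise was found for 35.4% of all genes tested at E41. The E41 call was lost without wild-type library 1 (adjusted p = 0.066), wild-type library 2 (0.056) or knockout library 1 (0.13), within a range of 0.0022 to 0.13 over 18 alternatives.

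TCF4, the E protein E2-2 of plasmacytoid dendritic cells, is a different gene from TCF7L2, which limb work often calls TCF4. It showed no detectable difference between the genotypes. Its levels at E41 were 71.9 and 77.1 CPM in wild type and 78.5 and 68.7 CPM in the knockout, and at E62 53.3 and 51.6 CPM against 53.7 and 52.6 CPM. The groups overlapped at each stage. The log2 change was −0.02 ± 0.09 at E41 (95% interval −0.24 to 0.20, adjusted p = 0.90) and 0.02 ± 0.09 at E62 (−0.20 to 0.24, adjusted p = 0.88).

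TCF12, which encodes the E protein HEB, a partner of the myogenic factors in mouse muscle cells, had levels of 367 and 352 CPM in wild type and 317 and 309 CPM in the knockout at E41. At E62 it stood at 313 and 305 CPM in wild type and 289 and 252 CPM in the knockout. The knockout libraries were the lower ones at each stage, without overlap, but the difference missed the threshold. The log2 change was −0.20 ± 0.10 at E41 (95% interval −0.43 to 0.03, adjusted p = 0.14) and −0.19 ± 0.10 at E62 (−0.42 to 0.03, adjusted p = 0.14). Scaling moved the values of TCF4 and TCF12: with library size alone the median of all genes shifted by 0.29 at E41 and 0.30 at E62, and the share of calls that were higher in the knockout went from 47.1% to 73.6% at E41 and from 44.5% to 69.4% at E62. The log2 changes then read 0.27 and 0.32 for TCF4 and 0.09 and 0.11 for TCF12, each moved up from the TMM value by about that shift, and TCF4 passed the test at E62 (adjusted p = 0.028, in a range of 0.028 to 0.99). TCF3 at E62 likewise turned to 0.12, while ID2, ID3 and ID4 passed the test in the same direction in all 18 alternatives at each stage.

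**Figure D3:**
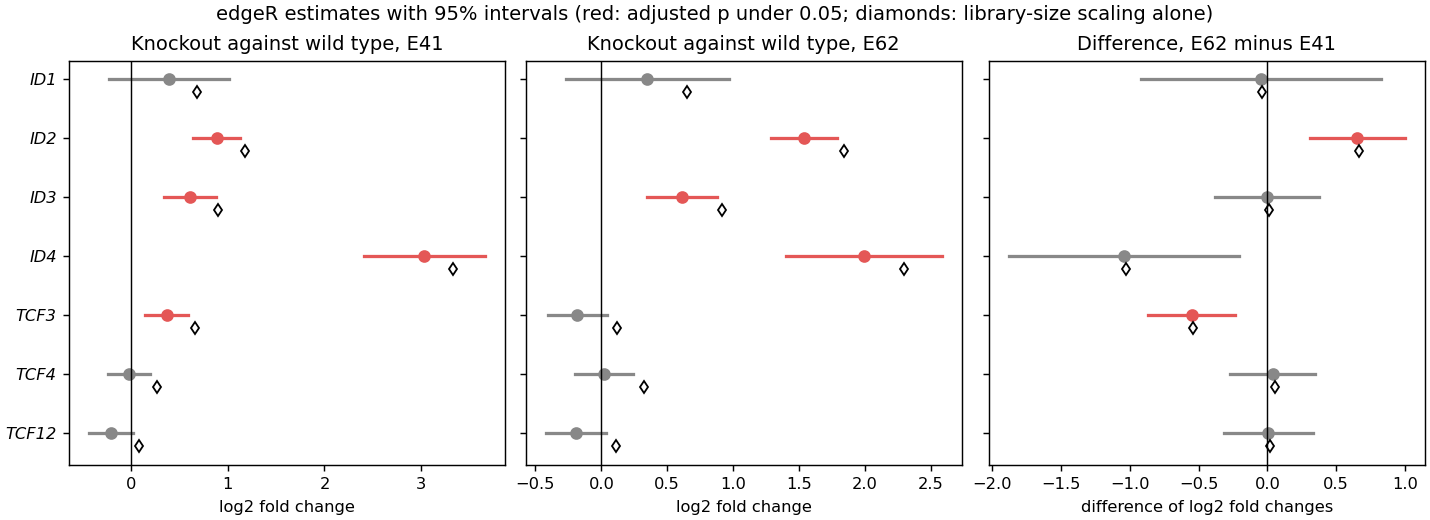
Estimated log2 change with its 95% interval for knockout against wild type at E41, at E62, and for the difference of the 2 changes, in red where the adjusted p is under 0.05, with diamonds for scaling by library size alone. The axes differ between panels. ID2, ID3 and ID4 pass at each stage, TCF3 at E41, and the difference passes for ID2 (0.65) and TCF3 (−0.55).

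Because the action of an ID protein depends on the amount of E protein it meets, each ID gene was also set against the mean of the 3 E-protein genes within the same library, on the log2 scale and relative to the wild-type E41 mean. Library scaling cancels in this measure, which is given as a description with no test. It compares RNA levels, with equal weight on the 3 E-protein genes, and protein amounts were not measured. For ID2 the values were 0.84 and 0.84 in the E41 knockout libraries, −1.07 and −1.02 in the E62 wild type, and 0.68 and 0.54 in the E62 knockout. ID4 stood at 3.16 and 2.77, 0.19 and 0.65, and 2.46 and 2.63 in the same libraries. ID3 stood at 0.55 and 0.58, −0.01 and −0.21, and 0.53 and 0.73. For all 3 genes the knockout libraries lay above the wild-type libraries of their stage. ID1, taken in the same order of groups, stood at 0.26 and 0.44, at −0.09 and −0.46, and at 0.51 and −0.19, so that its genotypes overlapped at E62.

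**Figure D4:**
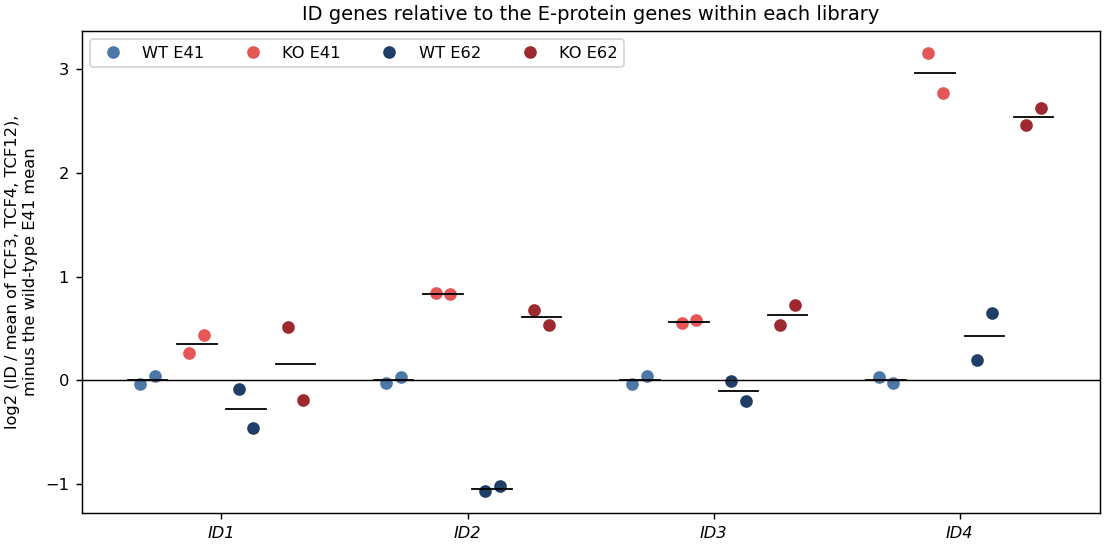
Each ID gene relative to the mean log2 level of TCF3, TCF4 and TCF12 in the same library, with the wild-type E41 mean set to 0; points are libraries and lines are means of 2. ID2 falls to −1.05 in wild type E62 and stays at 0.61 in knockout E62, and ID4 is at 2.97 and 2.55 in the 2 knockout groups.

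With time, ID2 and TCF4 fell in wild-type tissue. Between E41 and E62, 2 of the 7 genes fell in wild type and 0 rose, while 20% of all genes fell and 19.8% rose. ID2 fell by 1.22 ± 0.11 on the log2 scale (adjusted p = 0.00035) and TCF4 fell by 0.51 ± 0.09 (adjusted p = 0.0049). In the knockout, 4 of the 7 fell and 0 rose, against 18% and 12.1% of all genes: ID2 fell by 0.57 ± 0.10 (adjusted p = 0.0068), TCF4 by 0.47 ± 0.09 (0.0097), TCF3 by 0.35 ± 0.10 (0.029) and ID4 by 0.78 ± 0.24 (0.041). The stage comparison in the knockout leaned on single libraries. Without knockout E41 library 1 the count of 4 went to 0, with adjusted p of 0.057 for ID2, 0.079 for TCF4, 0.17 for TCF3 and 0.31 for ID4. It was 2 without knockout E41 library 2, knockout E62 library 2 or either wild-type E41 library. The ID4 call was lost in 13 of 18 alternatives and the TCF3 call in 8.

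Wild-type TCF3 had a log2 change between the stages of 0.20 ± 0.10 (adjusted p = 0.14), which passed without wild-type E62 library 2 (adjusted p = 0.039, in a range of 0.039 to 0.26), and wild-type ID4 of 0.26 ± 0.27 (adjusted p = 0.48). ID3 was lower at E62 by a similar amount in wild type (−0.28 ± 0.12, adjusted p = 0.091) and knockout (−0.28 ± 0.11, adjusted p = 0.10). The wild-type ID3 call was gained without wild-type E62 library 1 (adjusted p = 0.048, in a range of 0.048 to 0.68). TCF12 differed between the stages by −0.22 ± 0.10 in wild type and −0.21 ± 0.10 in the knockout, and missed the threshold in both (adjusted p = 0.11 and 0.14). ID1 differed by −0.43 ± 0.26 in wild type (adjusted p = 0.23) and −0.48 ± 0.26 in the knockout (adjusted p = 0.19), where it reached −0.93 and passed the test without knockout E62 library 1 (adjusted p = 0.014, in a range of 0.014 to 0.61).

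The effect of the knockout was tested for a difference between the stages. It grew for ID2, by 0.65 ± 0.15 on the log2 scale (adjusted p = 0.016), and moved the other way for TCF3, by −0.55 ± 0.14 (adjusted p = 0.022). Of all genes tested, 11.2% had a difference above 0 and 15.5% one below 0 at this threshold. Neither call held in every fit: ID2 gave an adjusted p of 0.056 without wild-type E41 library 2 and 0.074 without knockout E41 library 2 (range 0.0027 to 0.074), and TCF3 gave 0.055 without wild-type E41 library 1 and 0.089 without knockout E41 library 1 (range 0.0097 to 0.089). For ID4 the difference was −1.04 ± 0.36 and missed the threshold (adjusted p = 0.068), which it passed with counts thinned to the smallest library total (adjusted p = 0.046, in a range of 0.046 to 0.26). The differences for ID1 (−0.05 ± 0.37), ID3 (−0.002 ± 0.16), TCF4 (0.04 ± 0.13) and TCF12 (0.01 ± 0.14) had adjusted p of 0.94, 1, 0.86 and 0.98.

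Other cell types moved between the same groups. In bulk tissue, fewer cells of a type and less RNA per cell cannot be told apart. The counts of markers below stand against 18.5% of all genes higher and 20.8% lower at E41, and 21% and 26.2% at E62. Connective tissue fibroblast genes were higher in the knockout for 7 of 10 markers at E41 and 9 of 10 at E62, and summed to 17177 to 27548 CPM in wild type and 38386 to 39823 in the knockout at E41, then 20513 to 37082 and 67134 to 73182 at E62. Endothelial genes, of cells in which ID1 and ID3 are known to be made, rose for 4 of 9 markers at E41 and 5 of 9 at E62. Their sum was 678 to 829 CPM against 975 to 1089 CPM at E41, and 872 to 898 against 1023 to 1643 at E62.

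Neuronal genes rose for 1 of 8 tested markers at E41 and 5 of 8 at E62, and ELAVL3, a marker too low to be tested, had 0 counts in wild type and 0 to 2 in each knockout library. The 9 neuronal genes summed to 198 to 414 CPM in wild type and 373 to 381 in the knockout at E41, and to 9.04 to 9.89 against 51.4 to 76.0 at E62. STMN2 made up most of the E41 sums, at 178 and 401 CPM in wild type and 363 and 350 in the knockout. At E62 STMN2 was at 2.77 and 2.41 CPM against 53.9 and 37.5. Schwann cell and glial genes rose for 3 of 8 and fell for 2 of 8 at E41, with sums of 374 to 398 CPM against 137 to 204, and rose for 1 and fell for 2 at E62, with sums of 505 to 523 against 60.05 to 69.8. These sums were set mostly by ERBB3, a receptor gene at 312 and 321 CPM in wild type and 59.9 and 41.8 in the knockout at E41, and at 464 and 462 against 22.5 and 14.5 at E62. Without ERBB3, left out after its values were seen, the other 7 genes summed to 61.2 and 77.0 CPM in wild type and 144 and 94.9 in the knockout at E41, and to 40.9 and 61.1 against 37.5 and 55.3 at E62. Macrophage genes rose for 2 of 8 and fell for 1 at E41, with sums of 109 to 229 CPM against 232 to 237, and rose for 8 of 8 at E62, with sums of 151 to 176 against 635 to 689. Adipocyte genes rose for 1 of 6 at E41, with sums of 9.81 to 13.8 CPM against 24.04 to 33.8, and for 5 of 6 at E62, with sums of 30.9 to 43.9 against 137 to 208. The E41 adipocyte sums were set mostly by CEBPA, at 5.89 and 8.32 CPM in wild type and 27.2 and 18.1 in the knockout. Smooth muscle and pericyte genes rose for 1 of 8 and fell for 3 at E41, with sums of 1307 to 1502 CPM against 626 to 639. At E62 they rose for 2 and fell for 3, with sums of 1674 to 1698 against 669 to 766. The wild-type sums were made up mostly of ACTA2, at 972 and 831 CPM against 66.5 and 66.7 in the knockout at E41. At E62 ACTA2 was at 1025 and 894 CPM against 129 and 116. TAGLN and CNN1 also fell at E41, while PDGFRB rose.

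Libraries of 1 group also differed in their markers. The sum of 8 cartilage genes was 373 CPM in knockout E41 library 1 and 4222 in library 2, where ID4 was at 12.4 and 8.77 CPM, and 1017 and 278 in the wild-type E41 libraries. Within the knockout E62 group the endothelial sum was 1023 CPM in library 1 and 1643 in library 2, while the sum of 5 skin epithelium genes was 622 and 41.2 CPM. ID1 was at 41.5 and 24.2 CPM in those libraries. The part of these cell types in the ID results was not tested.

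The myogenic bHLH genes, whose proteins pair with E proteins in muscle, all fell: 4 of 4 at each stage. Of all genes tested, 20.8% fell at E41 and 26.2% at E62. MYF5, MYOD1 and MYF6 were the targets of the knockout, so their fall is a check of the labels. Computed against a floor of 3 counts over the knockout group, levels of MYF5 were lower by at least 1542-fold (E41) and 3374-fold (E62), and those of MYF6 by at least 856-fold and 4504-fold. MYOD1 was 161-fold lower at E41 (log2 change −7.33 ± 0.24, adjusted p = 9.9e-07) and 125-fold lower at E62 (−6.96 ± 0.22, adjusted p = 5.2e-07). MYOG, the myogenic factor of differentiation and not itself a target, went from a mean of 377 ± 50.1 CPM to 0.043 CPM at E41, and had 1 count in all against 40823 in wild type at E62. Of 20 muscle genes reported to be driven through E boxes, 20 fell at each stage, where 20.8% and 26.2% of all genes fell. Their median log2 change was −8.98 and −10.25, against medians of 0.089 and 0.060 over all genes. They included MYL1, a fast myosin light chain (−13.82 and −13.67), TNNT2, a troponin of embryonic muscle (−11.98 and −11.05), MYH3, the embryonic myosin heavy chain (−12.28 at E41), CKM, muscle creatine kinase (−11.02 at E62), and CDH15, the cadherin of myoblasts (−7.41 and −9.76).

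Other tissue-restricted bHLH genes, which also pair with E proteins, went in both directions. Of 38 listed, 14 were tested; 6 rose and 2 fell at E41, and 4 rose and 5 fell at E62, with median log2 changes of 0.76 and 0.50. Among all genes 18.5% rose and 20.8% fell at E41, and 21% and 26.2% at E62. TAL1 and LYL1, factors of blood and endothelial development, rose at each stage, TAL1 by 2.08 ± 0.35 and 1.89 ± 0.32 (adjusted p = 0.0029 and 0.0023) and LYL1 by 1.36 ± 0.24 and 1.40 ± 0.23 (0.0034 and 0.0018). HAND2, a limb patterning factor, rose by 1.92 ± 0.31 and 1.77 ± 0.36 (0.0024 and 0.005). TWIST2, a factor of dermal and connective tissue precursors that is also in the fibroblast marker list, rose by 2.42 ± 0.58 at E41 (0.023) and 3.46 ± 0.63 at E62 (0.0076).

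MSC, a bHLH repressor made in myoblasts, fell by 5.47 ± 0.67 and 6.59 ± 0.70 (adjusted p = 0.0025 and 0.0011). TCF15, a factor of the embryonic somites, fell by 1.94 ± 0.32 at E62 (0.0018). TCF21, a mesodermal bHLH factor, had 32 counts in wild type and 3 in the knockout at E41, a 22.8-fold lower level (95% Clopper-Pearson interval 7.13 to 116, for counting error only), and lost its call without any 1 of the 4 E41 libraries (adjusted p of 0.066 to 0.14). The counts of this list depended on single libraries: at E41, 3 rose and 1 fell without any 1 of the 4 E41 libraries, and at E62, 3 fell without wild-type E62 library 1 or either knockout E62 library.

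Repressors that compete for E boxes or lie near them are mainly the HES and HEY targets of Notch. Of 12 tested, 1 rose and 2 fell at E41, where 18.5% of all genes rose and 20.8% fell, and 2 rose and 6 fell at E62, where 21% and 26.2% did; the difference between the stages was not tested for the list. The E41 rise was 2 genes without wild-type E41 library 2, wild-type E62 library 2 or either knockout E62 library, and 4 with library-size scaling. HEYL fell by 1.56 ± 0.25 at E41 and 2.02 ± 0.25 at E62 (adjusted p = 0.0036 and 0.00086). HES6, a partner and inhibitor of HES1, fell by 0.71 ± 0.13 and 1.23 ± 0.13 (0.0037 and 0.00018). At E62 HES1 fell by 1.36 ± 0.20 (0.0015) and HEY1 by 1.24 ± 0.20 (0.0019). SNAI2, a zinc-finger repressor of mesenchymal cells that binds E boxes, rose by 0.69 ± 0.12 and 0.54 ± 0.12 (0.0039 and 0.0084), and BHLHE41, a bHLH repressor of the circadian clock, rose by 1.81 ± 0.37 at E62 (0.0053).

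Cofactors that E proteins recruit also split. Of 14 tested, 5 rose and 2 fell at E41, and 4 rose and 3 fell at E62, with median log2 changes of 0.30 and −0.15. Over all genes the shares were 18.5% and 20.8% at E41 and 21% and 26.2% at E62, so that the E62 counts lie near the background. At E41 the LIM-domain binding protein LDB1 rose by 0.78 ± 0.09 (adjusted p = 0.00054), and the corepressors RUNX1T1 and CBFA2T2 of the ETO family, which bind E-protein activation domains, rose by 1.48 ± 0.15 (0.0003) and 0.47 ± 0.09 (0.004). The third ETO-family gene, CBFA2T3, fell by 1.46 ± 0.15 at E62 (0.00019). The deacetylase HDAC2 fell by 0.80 ± 0.10 at E41 (0.00094). HDAC1 rose by 0.55 ± 0.09 at E62 (0.0017), as did LDB2, by 1.99 ± 0.28 (0.0017), and the acetyltransferase EP300 fell by 0.48 ± 0.10 (0.0052). With library size alone the EP300 change at E62 was −0.18 and did not pass the test (adjusted p = 0.19). HDAC2 at E62 (−0.32 ± 0.10, adjusted p = 0.035) and the acetyltransferase KAT2B at E41 (−0.46 ± 0.15, 0.039) were less firm. The HDAC2 call was lost in 10 of 18 alternatives and the KAT2B call in 6. With library size alone their changes were −0.02 (adjusted p = 0.88) and −0.17 (0.35). At E41 1 cofactor fell without any 1 of the 4 E41 libraries, and at E62 2 rose without knockout E62 library 2 or either wild-type E62 library.

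**Figure D5:**
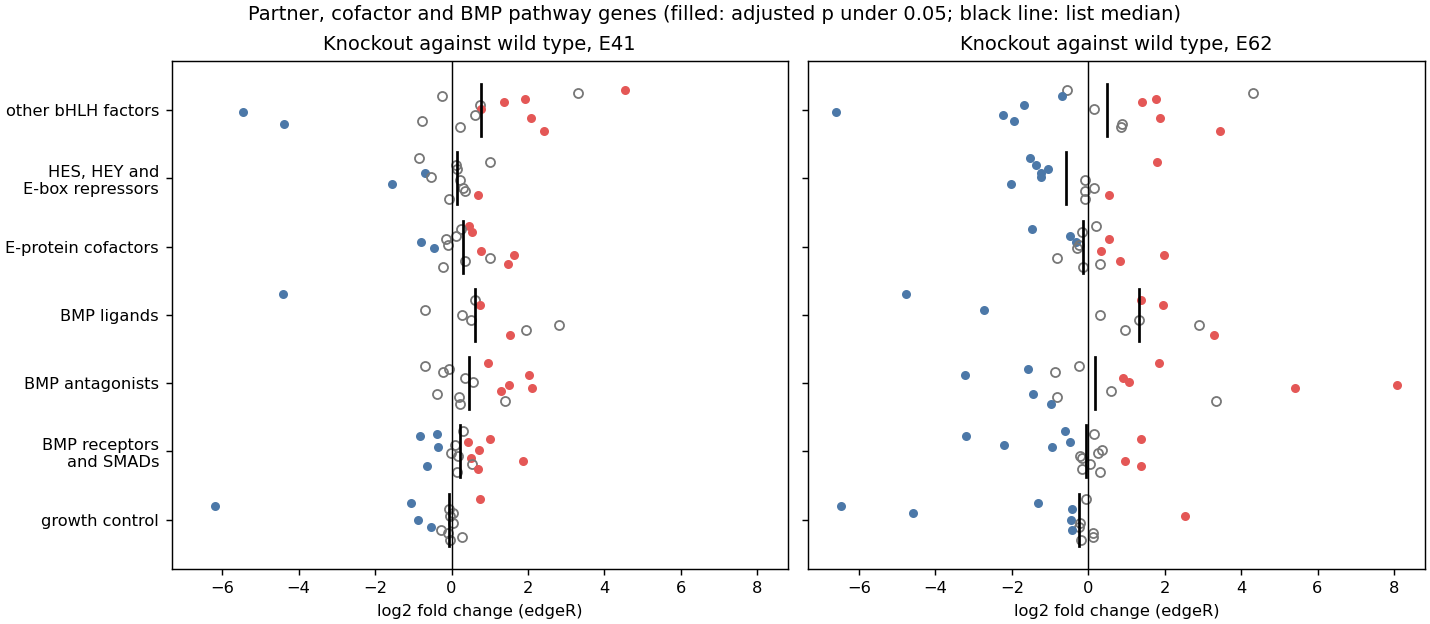
Log2 fold change, knockout over wild type, of each tested gene in 7 lists of partners, cofactors, BMP pathway and growth control genes at E41 and E62; points are genes, filled where the adjusted p is under 0.05 (red higher, blue lower), and black lines are list medians; genes with 1 to 3 counts in a group, such as TCF21 at E41, are at fitted values that are no measure of size. BMP ligands and antagonists spread widely at E62, from GREM1 at 8.07 to BMP10 at −4.76.

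BMP ligands feed the pathway that raises ID genes. Of 9 tested, 2 rose and 1 fell at E41, and 3 rose and 2 fell at E62, with median log2 changes of 0.61 and 1.33. With 18.5% of all genes rising and 20.8% falling at E41, and 21% and 26.2% at E62, the E41 counts lie near the background. BMP4, a ligand of limb mesenchyme, rose from 14.3 ± 1.17 to 24.2 ± 0.251 CPM at E41 (log2 change 0.76 ± 0.20, adjusted p = 0.021) and from 5.82 ± 0.276 to 22.7 ± 7.10 CPM at E62 (1.96 ± 0.21, adjusted p = 0.00023). The E41 call of BMP4 was lost without any 1 of the 4 E41 libraries (adjusted p of 0.061 to 0.094). GDF6, a joint ligand, rose by 1.54 ± 0.47 at E41 (0.033) and 3.29 ± 0.66 at E62 (0.0046), the first lost without wild-type E41 library 2 (0.12), knockout E41 library 1 (0.14) or knockout E41 library 2 (0.094). Without wild-type or knockout E41 library 2, 0 ligands rose at E41, and 1 rose without wild-type or knockout E41 library 1.

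BMP10, a ligand of the heart, was low and fell by 4.41 ± 0.31 and 4.76 ± 0.29 (adjusted p = 5.8e-05 and 1.3e-05), from 3.05 ± 0.072 to 0.14 ± 0.014 CPM at E41. BMP2 rose by 1.39 ± 0.41 (0.027) and BMP5 fell by 2.73 ± 0.81 (0.04) at E62. BMP2 gave 0.08 without wild-type E62 library 1, 0.058 without knockout library 1 and 0.077 without knockout library 2, and BMP5 gave 0.056 to 0.16 without any 1 of the 4 E62 libraries. BMP5 was also lost without either wild-type E41 library (0.063). At E62, 1 ligand fell without any 1 of those 6 libraries, and 2 rose without either knockout E62 library.

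BMP antagonists, many of which hold ligands away from their receptors, rose for 5 of 14 and fell for 0 at E41. At E62, 5 rose and 4 fell. The shares over all genes were 18.5% and 20.8%, then 21% and 26.2%. GREM1, a secreted antagonist of BMP2 and BMP4, rose from 47.5 ± 17.1 to 135 ± 20.0 CPM at E41 (log2 change 1.51 ± 0.29, adjusted p = 0.008). At E62 it was at 0.490 ± 0.140 CPM in wild type and 133 ± 32.4 CPM in the knockout, a log2 change of 8.07 ± 0.43 (adjusted p = 2.7e-05). BAMBI, a decoy receptor and a BMP target, rose by 0.96 ± 0.16 and 1.86 ± 0.17 (0.0031 and 9.7e-05). NBL1, a secreted relative of GREM1, rose by 1.30 ± 0.28 at E41 (0.012) and lost the call without knockout E41 library 1 (0.062). At E62 CHRD, the antagonist chordin, fell by 1.58 ± 0.28 (0.0036), and TWSG1, its partner, by 0.98 ± 0.13 (0.00079).

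CHRDL2, a chordin relative, rose by 2.02 ± 0.54 at E41 (adjusted p = 0.02) and fell by 3.24 ± 0.55 at E62 (0.0023), from mean levels under 2 CPM. The E41 call of CHRDL2 was lost without wild-type E41 library 1 (0.08), wild-type E41 library 2 (0.06) or knockout E41 library 2 (0.17). NOG, the antagonist noggin, fell by 1.46 ± 0.47 at E62 (0.034), which was lost without any 1 of the 4 E62 libraries (0.061 to 0.12). Without knockout E41 library 1 or wild-type E41 library 1, 3 antagonists rose at E41, and without knockout E41 library 2, 1 fell.

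Of 16 BMP receptors, SMADs and their regulators, 6 rose and 4 fell at E41, and 3 rose and 5 fell at E62. The E62 counts lie near the background of 21% and 26.2%, and at E41 it was 18.5% and 20.8%. SMAD6, an inhibitory SMAD that BMP signals induce, rose by 1.87 ± 0.28 at E41 (adjusted p = 0.0017) and 0.95 ± 0.27 at E62 (0.021), the latter lost without wild-type E62 library 1 (0.13) or knockout E62 library 2 (0.11). ACVRL1, a type I receptor of endothelial cells, rose by 1.00 ± 0.17 and 1.39 ± 0.17 (0.0034 and 0.00054). At E41 the signalling SMAD5 rose by 0.51 ± 0.09 (0.0037) and the ubiquitin ligase SMURF1 by 0.68 ± 0.15 (0.0096), which gave 0.051 without knockout E41 library 2. At E62 SMAD9 rose by 1.37 ± 0.21 (0.0013). Of the type II receptors, ACVR2B fell by 3.21 ± 0.29 (9.5e-05) and BMPR2 fell by 0.94 ± 0.11 (0.00043) at E62.

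At E41 BMPR2 (−0.36 ± 0.11, adjusted p = 0.038) and the type II receptor ACVR2A (−0.38 ± 0.12, 0.038) passed narrowly. BMPR2 gave 0.062 to 0.25 without any 1 of the 4 E41 libraries. ACVR2A gave 0.24 without wild-type E41 library 2, 0.084 without knockout E41 library 1, 0.2 without knockout E41 library 2, and 0.054 without either wild-type E62 library. At E41, 4 genes of this list rose and 0 fell without wild-type library 2 or either knockout library, 5 rose and 2 fell without wild-type library 1, 1 fell without either wild-type E62 library, and 10 rose and 0 fell with library-size scaling. At E62, 2 rose and 3 fell without wild-type library 1 or knockout library 2, 3 fell without wild-type library 2, and 7 rose and 2 fell with library-size scaling.

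Of 13 growth control genes named in work on ID and E proteins, 1 rose and 4 fell at E41, and 1 rose and 6 fell at E62, beside 18.5% and 20.8%, and 21% and 26.2%, of all genes. CDKN1A, the cell-cycle inhibitor p21 that E proteins activate and ID proteins hold down, fell from 390 ± 22.01 to 5.35 ± 1.96 CPM at E41 (log2 change −6.19 ± 0.41, adjusted p = 0.00015). At E62 it fell from 779 ± 72.3 to 8.74 ± 3.68 CPM (−6.47 ± 0.41, adjusted p = 6.2e-05). CDKN1C, the related inhibitor p57, fell by 4.58 ± 0.57 at E62 (0.0019). CCNE1, a cyclin of entry into DNA synthesis, fell by 1.05 ± 0.18 and 1.31 ± 0.18 (0.0032 and 0.0008). COPS5, a signalosome subunit, fell by 0.87 ± 0.08 and 0.44 ± 0.08 (0.00024 and 0.0033). With library size alone the COPS5 change at E62 was −0.14 and did not pass the test (adjusted p = 0.2).

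CCND1, a cyclin that ID genes are reported to favour, rose by 0.75 ± 0.20 at E41 (adjusted p = 0.021), which was lost without wild-type E41 library 2 (0.11), knockout E41 library 1 (0.053) or knockout E41 library 2 (0.11). HUWE1, a ubiquitin ligase that acts on ID proteins, fell by 0.54 ± 0.13 at E41 (0.015). That call was lost without wild-type E41 library 1, wild-type E41 library 2 or knockout E41 library 2. It was also lost with library size alone, where the change was −0.24 (adjusted p = 0.15). CDKN2B, the inhibitor p15, rose by 2.53 ± 0.77 at E62 (0.028), lost without wild-type E62 library 1 (0.087), wild-type E62 library 2 (0.14) or knockout E62 library 1 (0.23). Without those libraries, 0 genes of this list rose at that stage, and 4 fell without knockout E62 library 1. At E41, 2 rose without wild-type E41 library 1 or either wild-type E62 library.

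The genes with the pattern most like each changed member were found among 12587 genes of at least 1 CPM, by the root mean square difference of log2 CPM, centred on each gene's own mean, over the 8 libraries. The libraries share groups and scaling, so this is a description with no test. ID2 was closest to STON1 (0.098), SH3BP1 (0.134) and HHIP (0.152), against a median of 0.862 over all candidates. STON1, an endocytic adaptor, had log2 changes of 0.96 and 1.52 at the 2 stages. Closeness to the ID2 values follows from how the gene was picked. HHIP is a secreted antagonist of Hedgehog signals, and SH3BP1 a regulator of small GTPases.

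ID3 was closest to PAFAH1B3 (0.062), FNDC4 (0.070) and SNAI2 (0.083), against a median of 0.520. SNAI2 is the E-box repressor described above. ID4 was closest to ARHGAP20 (0.298), ANGPTL4 (0.365) and PRRX2 (0.409), against a median of 1.33. Distances grow with a gene's own spread: divided by the member's SD over the libraries, the best match was at 0.127 for ID2, 0.177 for ID3, 0.233 for ID4 and 0.222 for TCF3. PRRX2 is a homeobox gene of limb mesenchyme and ANGPTL4 a secreted inhibitor of lipoprotein lipase. TCF3 was closest to USP21 (0.036), MBLAC1 (0.050) and SETD1A (0.051), against a median of 0.407; USP21 is a deubiquitinase and SETD1A a histone methyltransferase.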

How the data were processed

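RNA from 8 pig limb libraries was sequenced, with 2 libraries in each of 4 groups. The deposited table holds 1 whole-number value per gene and library and was used as estimated counts: kallisto and DESeq2, with builds Sscrofa11.1 and susScr11, are listed, per the submitters' processing notes, without versions or roles. For gene summing, rounding, annotation release and strand setting the sources used here give nothing. The kit is TruSeq RNA or stranded mRNA, per the labels' protocols. Of 22516 genes, 15527 carry a symbol and 2564 are 0 in every library. Gene positions are from RefSeq on Sscrofa11.1.

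Genes were kept with filterByExpr (minimum count 10), which left 17020, of which 14082 carry a symbol. The model, in edgeR 4.0.16 under R 4.3.3, used TMM scaling, a mean for each group and robust quasi-likelihood F tests, two-sided, with 4 residual degrees of freedom and a common biological coefficient of variation of 0.204. P-values were adjusted by Benjamini-Hochberg over all genes tested, at a threshold of 0.05. Levels are TMM-scaled CPM, in which 1 count is worth 0.0148 to 0.0483 CPM. Levels were compared within a gene and not between genes, since transcript lengths were not used. Counting intervals are 95% and cover counting error only. The fit was tested on counts simulated for the E41 comparison, with 50 genes changed at each size. It recovered 8 of 50 at 1.5-fold, 31 at 2-fold, 47 at 4-fold and 50 at 8-fold, with 16700 genes tested. In the measured libraries 6678 of 17020 genes passed at E41. Recovery with that many genes changed was not tested.

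Alternatives were DESeq2 1.42.0, limma-voom (limma 3.58.1), other scalings and filters, a fit of the compared groups alone, a block for the replicate number, each library left out and, chosen after seeing the library totals, counts thinned to the smallest total. Members and lists were chosen with earlier results of these data known. Besides the 7 members, genes were named by a rule: from each pathway list and genotype comparison, up to 4 genes past the threshold with the smallest p, and up to 2 against the majority's direction, plus the 4 myogenic bHLH genes and the 3 nearest genes of each member that changed between genotypes. Genes named as cell markers are outside this rule.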

Additional observations from a re-analysis of the deposited data

Results flagged for a closer look

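In each case below, the test of the difference between the 2 stages passed the threshold, so that the knockout effect was not the same at E62 as at E41. Values are the E62 effect minus the E41 effect on the log2 scale, with the standard error and the adjusted p from edgeR. Across all genes tested, 26.8% passed this test.

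Among the 7 genes the difference was 0.65 ± 0.15 for ID2 (adjusted p = 0.016) and −0.55 ± 0.14 for TCF3 (adjusted p = 0.022). In the BMP pathway it was above 0 for the antagonist GREM1 (6.56 ± 0.50, 0.00099), the signalling SMAD9 (2.004 ± 0.294, 0.0032), the ligand BMP4 (1.203 ± 0.288, 0.019) and the decoy receptor BAMBI (0.90 ± 0.23, 0.024). It was below 0 for the antagonists CHRDL2 (−5.26 ± 0.77, 0.0032), CHRD (−1.53 ± 0.39, 0.028) and TWSG1 (−1.21 ± 0.19, 0.0041). It was also below 0 for the receptors ACVR2B (−2.38 ± 0.38, 0.0046) and BMPR2 (−0.59 ± 0.16, 0.031), for SMAD5 (−0.67 ± 0.13, 0.0086) and for SMURF1 (−0.84 ± 0.21, 0.023).

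Among cofactors and repressors the difference was −1.71 ± 0.21 for CBFA2T3 (0.0018), −1.18 ± 0.21 for RUNX1T1 (0.0059), −0.61 ± 0.14 for EP300 (0.016) and −0.45 ± 0.13 for LDB1 (0.033). It was 0.69 ± 0.12 for HDAC1 (0.007), 0.48 ± 0.15 for HDAC2 (0.047) and −1.48 ± 0.29 for HES1 (0.0097). Among muscle genes it was −2.35 ± 0.23 for CDH15 (0.00099) and −2.63 ± 0.24 for CKM (0.00092). In the knockout CDH15 had only 30 and 37 counts at E41 and 23 and 28 at E62, and CKM 46 and 35, then 97 and 82. Wild-type counts went from 2561 and 2790 to 12145 and 11331 for CDH15, and from 6748 and 5972 to 100268 and 95302 for CKM. Among growth control genes the difference was −4.63 ± 0.74 for CDKN1C (0.0097) and 0.42 ± 0.12 for COPS5 (0.031).

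The call was lost without at least 1 single library for ID2, TCF3, BAMBI (adjusted p up to 0.088), BMP4 (0.068), BMPR2 (0.1), CHRD (0.09), COPS5 (0.11), EP300 (0.065), HDAC2 (0.17), LDB1 (0.11) and SMURF1 (0.072).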

How the results depend on the processing

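Depth limits ID4 most, with 27 to 59 counts in each wild-type library. Of 623 values of the 7 genes under the alternatives, 552 kept the direction and the side of the threshold, 30 lost a call, 7 gained one and 34 changed sign; none of the sign changes involved a call. Of 1903 values of the other named genes, 1766 were the same and 137 lost the call. Some calls were lost with no library of the comparison left out. With library size alone this was so for NOG at E62 (adjusted p = 0.066), BMPR2 at E41 (0.61) and ACVR2A at E41 (0.56). With limma-voom it was so for BMP4 and CHRDL2 at E41 (0.063 and 0.07), and BMP5 and CDKN2B at E62 (0.055 and 0.14). A fit of the compared groups alone lost BMP2 (0.061) and CDKN2B (0.071) at E62. The cause of the changes below was not tested, except that leaving out a library also leaves fewer samples.

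With library size alone the log2 change was 0.12 for TCF3 at E62, 0.27 for TCF4 at E41, and 0.088 at E41 and 0.11 at E62 for TCF12. TCF4 at E41 was 0.016 with the filter of 1 CPM. The stage difference of ID3 was 0.036 with DESeq2 and with RLE factors, 0.011 with library size alone, 0.0051 with limma-voom, 0.0022 with the filter of 1 CPM and 0.043 with thinned counts. That of TCF12 was −0.0068 with no filter.

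Deviations of same-numbered libraries correlated at −0.122 to 0.081 between groups, so that no pairing by replicate number was seen. With 2 libraries in a group the 2 deviations mirror each other, so this check cannot exclude a pairing. With the replicate block the counts of called genes were 6114 at E41, 7512 at E62, 3851 for the difference, 6109 for the wild-type stages and 4435 for the knockout stages, against 6678, 8028, 4553, 6782 and 5126. The ID3 difference was then 0.0017, and of the 7 genes only ID4 between the knockout stages lost a call (adjusted p = 0.067).
Leaving out 1 library at a time gave 3927 to 6720 called genes at E41, 2499 to 4282 for the difference, 4491 to 6885 for the wild-type stages and 1906 to 5022 for the knockout stages. The lowest counts came without knockout E41 library 1 (3927, 2499 and 1906) and without wild-type E62 library 2 (4491). Log2 changes that crossed 0 ran from −0.10 to 0.69 for ID1 at E62, −0.50 to 0.29 for the ID1 difference, −0.18 to 0.12 for the ID3 difference, −0.12 to 0.078 for TCF4 at E41, −0.0075 to 0.038 for TCF4 at E62, −0.064 to 0.13 for the TCF4 difference and −0.10 to 0.098 for the TCF12 difference.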
